A study of Mus musculus with 6 samples.

Results

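The genes described here are 8 secreted modulators of WNT signalling: the R-spondins Rspo1, Rspo2 and Rspo3, the Dickkopf genes Dkk2 and Dkk3, and the secreted Frizzled-related genes Sfrp1, Sfrp2 and Frzb. They were taken by symbol from the 24568 genes of the deposited matrix, and all 8 were found and counted. The study profiled single cells of the mouse embryonic small intestine, from C57/BL6 embryos of a Pdgfra-H2BGFP line, which reports Pdgfra with a nuclear green fluorescent protein. Embryos were pooled within each age, and each intestine was cut into pieces of 2.5 mm. E13.5 had 4 replicates and 3 segments, E14.5 had 3 replicates and 5 segments, and the later ages had 2 replicates each, with 10 segments at E15.5, 15 segments at E16.5 and 20 segments at E18.5. There are 6 labelled samples, which form 4 groups. E15.5 and E16.5 were run together, as 2 lanes of all live cells (negative for DAPI and for the red cell marker Ter119) and 1 sample of sorted cells. E13.5, the day after it (E14.5) and the last age (E18.5) were run together in the same way. Sorted cells carried CD31, CD45 or Epcam on their surface or had a high PDGFRA-GFP signal.

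All samples share 1 matrix of 13127 cells, whose barcodes carry 6 suffixes. No label links a suffix to an age or a sort, so the matrix counts as 1 sample, and the suffixes served only to split it into 6 barcode sets. Sets A1, A2 and A3 have the suffixes -1, -2 and -3 before the ending _1, and sets B1, B2 and B3 have them before the ending _2. After filtering, 12609 cells were kept (1178 to 2508 per set), with a median of 7051.5 to 13586 unique molecular identifiers (UMIs, each 1 captured transcript) per cell in ending A and 3548.5 to 4180 in ending B. Clusters were placed in classes by marker genes. PDGFRA-high mesenchyme made up 87.1% of A3 and 92.6% of B3, against 3.03% and 2.88% of A1 and A2 and 20.1% and 21.4% of B1 and B2. Other mesenchyme made up 90.1% and 91.6% of A1 and A2, 12.6% of A3, 62.6% and 60.0% of B1 and B2 and 5.68% of B3, and the remaining cells, at most 18.6% of a set, were in clusters left unnamed. The defining markers of endothelium, immune cells and epithelium, for which cells had been sorted, summed to at most 49.7, 64.4 and 255 CPM (a gene's UMIs per 1000000 UMIs of the cells). No cluster was named for these lineages. Mesenchyme was tried first in naming and left no cluster for them, so this does not show that such cells were absent. With no replicates that can be told apart, no p-value is given. Bracketed ranges and error bars are exact 95% intervals of the counting error alone, which leaves out the spread between embryos.

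R-spondins bind Lgr receptors and keep the membrane ligases Znrf3 and Rnf43 from removing Frizzled receptors, which makes a cell more responsive to WNT. Dickkopf proteins act on the other side of the receptor complex: Dkk2 binds the co-receptors Lrp5 and Lrp6, while Dkk3 is a divergent family member. Secreted Frizzled-related proteins carry a Frizzled-like domain that binds WNT ligands outside the cell, and Frzb belongs to the same family. In the intestine, R-spondins from the mesenchyme support the epithelial stem and progenitor cells, and PDGFRA-high cells lie under the epithelium and below the growing villi.

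In the GENCODE annotation of GRCm38, the build that corresponds to the mm10 of the submitters' processing notes, all 8 are protein-coding genes. Rspo1 lies at 4:124986430-125009099, Rspo2 at 15:43020794-43170826, Rspo3 at 10:29452416-29535867, Dkk2 at 3:132085292-132180304, Dkk3 at 7:112116017-112159057, Sfrp1 at 8:23411502-23449632, Sfrp2 at 3:83766321-83774316 and Frzb at 2:80411970-80447625. Their longest coding transcripts have 3 exons (Sfrp1 and Sfrp2) to 8 exons (Dkk3). The RefSeq promoter table (GRCm38.p6) held 4 of the 8. The 250 bases before the start of 3 of them are shown, because Rspo1 and Dkk2 were lower and Sfrp2 higher in the sets rich in PDGFRA-high cells. The windows are Rspo1 chr4:124986180-124986429, Dkk2 chr3:132085042-132085291 and Sfrp2 chr3:83766071-83766320, each on the plus strand and 5′ to 3′, with a TATA box in capitals.
Rspo1: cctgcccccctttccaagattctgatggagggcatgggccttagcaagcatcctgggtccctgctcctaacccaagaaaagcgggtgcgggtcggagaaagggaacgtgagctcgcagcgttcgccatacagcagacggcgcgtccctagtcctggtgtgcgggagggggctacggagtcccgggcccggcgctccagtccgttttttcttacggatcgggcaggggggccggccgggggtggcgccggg
Dkk2: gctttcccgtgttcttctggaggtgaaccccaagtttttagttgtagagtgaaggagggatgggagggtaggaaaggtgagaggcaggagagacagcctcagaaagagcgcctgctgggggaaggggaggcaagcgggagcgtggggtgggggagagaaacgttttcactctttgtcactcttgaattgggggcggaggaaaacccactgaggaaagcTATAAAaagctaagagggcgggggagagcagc
Sfrp2: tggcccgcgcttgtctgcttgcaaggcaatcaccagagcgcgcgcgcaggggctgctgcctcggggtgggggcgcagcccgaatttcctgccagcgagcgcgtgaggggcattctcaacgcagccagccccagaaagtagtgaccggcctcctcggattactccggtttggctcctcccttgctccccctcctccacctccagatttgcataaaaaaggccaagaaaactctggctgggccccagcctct
The search covered both strands. The Dkk2 window held TATAAA, which began 32 bases before the start, and the windows of Rspo1 and Sfrp2 did not hold it on either strand. Of 32851 RefSeq windows of this length, 12.4% held it. The core of the TCF/LEF motif, CTTTGA, was in none of the 3 windows on either strand, and 13.8% of all windows held it. The window of Frzb, the other member in the promoter table, is not shown and did hold this core. It lay on the other strand and began 95 bases before the start. G and C made up 55.6% of the bases before Dkk2, 66.8% before Rspo1 and 63.6% before Sfrp2, beside a median of 52.4% over all windows.

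The R-spondins were all lower in set 3 than in sets 1 and 2 of the same ending. Rspo3, the R-spondin with the most UMIs, stood at 67.1 CPM in A1, 73.1 in A2 and 12.1 in A3, and at 54.6, 54.2 and 12.5 CPM in the 3 sets of ending B. A3 and B3 lay far below the other 4 and the intervals did not overlap. The log2 ratio of set 3 to sets 1 and 2 was -2.54 (-2.82 to -2.27) in ending A and -2.12 (-2.43 to -1.83) in ending B, which is 5.81-fold and 4.35-fold lower. In cells thinned to 2000 UMIs each, so that depth is matched, 11.8% and 12.2% of cells held a Rspo3 UMI in A1 and A2 against 2.81% in A3, and 9.51% and 8.53% in B1 and B2 against 1.71% in B3. The shares without thinning were 43.8%, 50.1% and 7.13% in ending A and 19.0%, 17.9% and 3.94% in ending B. By level and by share alike, A3 and B3 were the lowest sets. No cell class that should lack these genes was recovered, so the share that free RNA alone would give could not be measured.

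Rspo2, which is best known from limb and lung development, was at 10.5, 10.8 and 1.51 CPM in A1, A2 and A3. In B1, B2 and B3 it was at 10.2, 8.51 and 0.735 CPM. The third sets were again the low ones, with 14 UMIs in A3 and 6 in B3. The log2 ratios were -2.82 (-3.70 to -2.06) and -3.66 (-5.12 to -2.51). Rspo1 was at 4.73, 5.18 and 0.861 CPM in A1, A2 and A3, and at 2.89, 1.25 and 0.123 in B1, B2 and B3. Its ratios, -2.52 (-3.75 to -1.52) and -4.05 (-9.39 to -1.49), rest on 8 UMIs in A3 and 1 in B3. Sets 1 and 2 had nearly the same levels of Rspo2 and Rspo3. Rspo1 differed between B2 and B1, with a log2 ratio of -1.20 (-2.24 to -0.24) from 14 and 29 UMIs.

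In the comparison of sets, Dkk2 was more than 2-fold lower in set 3, as the R-spondins were, and Dkk3 stayed within 2-fold. Dkk2 stood at 16.8 CPM in A1, 17.9 in A2 and 3.12 in A3, and at 29.7, 28.3 and 2.08 CPM in the 3 sets of ending B. The third sets lay below the other sets of their ending with no overlap of intervals, at log2 ratios of -2.47 (-3.06 to -1.94) and -3.80 (-4.59 to -3.11), or 5.55-fold and 13.9-fold lower. The thinned shares were 3.23%, 3.98% and 0.511% in ending A and 4.91%, 4.92% and 0.461% in ending B. Dkk3 was at 43.9, 42.6 and 39.7 CPM in A1, A2 and A3, where the 3 intervals overlap, and the log2 ratio of -0.12 (-0.28 to 0.03) includes no difference. In ending B it was at 64.1, 65.5 and 40.7 CPM, and set 3 was 1.59-fold lower (log2 ratio -0.67, -0.85 to -0.50).

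Sfrp2 was the only member more than 2-fold higher in set 3 in both endings. It was at 15.9 CPM in A1, 19.6 in A2 and 60.5 in A3, and at 15.54, 18.2 and 34.0 CPM in the 3 sets of ending B. The third sets were above the others with no overlap of intervals, and the log2 ratios were 1.77 (1.62 to 1.92) and 1.01 (0.78 to 1.24). The 3.42-fold difference of ending A stayed past 2-fold in each of 7 alternative settings. The 2.01-fold difference of ending B lies at the limit of the 2-fold call and fell below it in 5 of 7, where the log2 ratio went as low as 0.85. A cell with Sfrp2 held 3.67 UMIs of it on average in A3, against 1.19 in A1 and 1.31 in A2 although those sets are deeper. At matched depth, 7.40% of the cells of A3 held a Sfrp2 UMI, against 3.19% and 3.21% in A1 and A2, and 5.12% of B3 against 2.46% and 3.04% in B1 and B2.

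Sfrp1 was found in most cells of every set, with thinned shares of 72.1% to 81.4%, and differed little. Its level was 982, 1039 and 1146 CPM in A1, A2 and A3 and 819, 819 and 1091 CPM in B1, B2 and B3. Set 3 was the highest of each ending, at log2 ratios of 0.18 (0.15 to 0.21) and 0.41 (0.38 to 0.45), which is under 2-fold. Frzb was close to the lower limit of what these counts can show, with 13 to 33 UMIs per set and 0.800 to 2.09 CPM. Its ratio was 0.96 (0.08 to 1.76) in ending A, past 2-fold only when set A1 was left out (1.19), and 0.29 (-0.67 to 1.19) in ending B. Levels of different genes are not set against each other, since capture from transcript 3' ends can differ between genes.

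**Figure D1:**
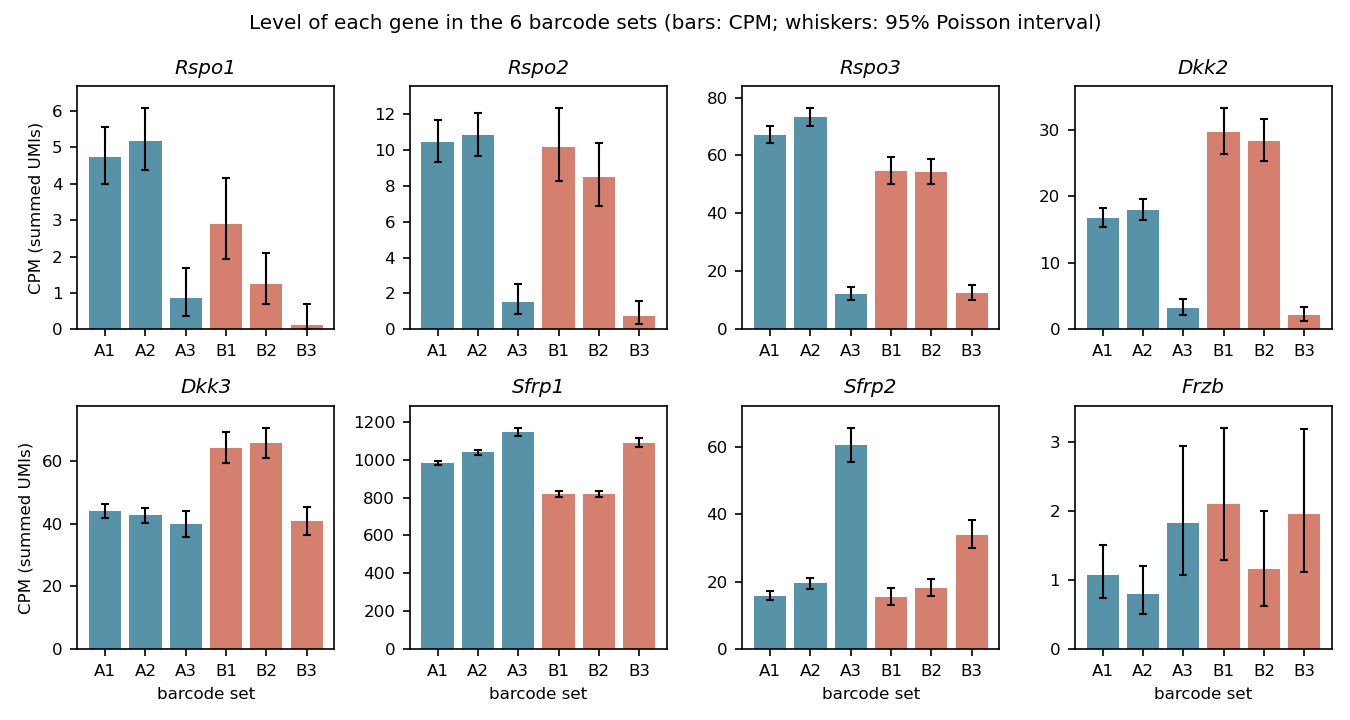
Level of each gene in CPM (vertical axes, separate scales from 0) in the 6 barcode sets, with 95% Poisson intervals as whiskers. Rspo1, Rspo2, Rspo3 and Dkk2 are low in A3 and B3, Sfrp2 is high there (60.5 and 34.0 CPM), and Sfrp1 and Dkk3 stay within 2-fold.

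In each ending, 4 of the 8 genes were at least 2-fold lower in set 3 (Rspo1, Rspo2, Rspo3 and Dkk2) and 1 was at least 2-fold higher (Sfrp2). Among the 7421 genes of ending A with at least 20 CPM on 1 side, 5.61% were 2-fold lower and 9.68% were 2-fold higher. Among the 6411 such genes of ending B, 5.40% were lower and 8.56% were higher. Only 4 of the 8 genes reached 20 CPM in ending A (Rspo3, Dkk3, Sfrp1 and Sfrp2), of which 1 was lower and 1 higher, and 5 did in ending B (Dkk2 as well), of which 2 were lower and 1 higher. Sfrp2 reached 20 CPM only in set 3, with 17.7 and 16.9 CPM in sets 1 and 2 of endings A and B. Rspo3, and Dkk2 in ending B, reached it only in sets 1 and 2. The filter itself favoured these calls, so the counts support nothing about the members as a set. With no minimum level, the shares over all genes rose to 21.5% lower and 20.8% higher in ending A and 17.9% and 16.9% in ending B. The median log2 ratio of all 8 genes, at any level, was -1.30 in ending A and -1.40 in ending B. Over all genes it was -0.05 and 0.12, but only genes with at least 20 CPM entered, so these medians are not comparable. The 4 members at that level in ending A had -2.54 (Rspo3), -0.12 (Dkk3), 0.18 (Sfrp1) and 1.77 (Sfrp2). Between sets 2 and 1, none of the 8 passed 2-fold in ending A, and Rspo1 alone did in ending B.

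The marker lists of other cell types differed between the sets as well. The 6 epithelial markers, none of them at 0 in any set, summed to 255 CPM in A3 against 34.4 to 36.8 in A1 and A2, and to 72.4 in B3 against 23.7 to 27.7 in B1 and B2. A further list of 5 abundant epithelial transcripts summed to 2330 CPM in A3 against 472 to 493, and to 55.7 in B3 against 31.8 to 35.3. Smooth muscle markers summed to 574 CPM in A3 against 1567 to 1614, and to 245 in B3 against 1131 to 1134. The cycling markers Mki67 and Top2a summed to 527 CPM against 926 to 1002 and to 221 against 807 to 879. Endothelial markers summed to 49.7 CPM in A3 against 6.22 to 6.29 and to 46.9 in B3 against 15.0 to 16.9, with none of the 5 at 0. Immune markers summed to 64.4 CPM in A3 against 9.55 to 11.1 and to 40.4 in B3 against 16.8 to 25.7, and Cd3e was at 0 in A1, A2, B1 and B2. Erythroid transcripts stood at 15.4 to 20.3 CPM in ending A and at 865 to 1887 in ending B, highest in B3. Enteric neuron markers summed to 4.74 CPM in A3 against 30.1 to 31.1, and to 1.22 in B3 against 81.6 to 83.0. General mesenchyme markers summed to 4618 CPM in A3 against 6771 to 7255, and to 3751 in B3 against 6712 to 7151. Pericyte markers summed to 176 CPM against 322 to 324 and to 126 against 196 to 198, and mesothelial markers to 52.1 against 11.7 to 11.8 and to 13.8 against 5.78 to 6.27. Glial markers (6.25 to 12 CPM) and those of interstitial cells of Cajal (96.1 to 131 CPM) differed less. Their part in the differences of the 8 genes was not tested.

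Within PDGFRA-high mesenchyme the sets were much closer. None of the 3 members with at least 20 CPM in this class (Dkk3, Sfrp1 and Sfrp2) passed 2-fold in either ending. Over all genes with that level, 0.946% were 2-fold lower and 2.81% higher in ending A, and 0.248% and 0.495% in ending B. Sfrp2 was at 54.3, 102 and 74.4 CPM in the PDGFRA-high cells of A1, A2 and A3, and at 33.7, 42.1 and 36.1 CPM in those of B1, B2 and B3. The log2 ratio of set 3 to sets 1 and 2 was -0.05 (-0.36 to 0.28) in ending A and -0.09 (-0.39 to 0.23) in ending B, so the higher Sfrp2 level of set 3 as a whole was not seen inside this class. Rspo3 in this class was at 13.6, 18.4 and 9.38 CPM in ending A and at 13.7, 17.1 and 9.36 CPM in ending B, with log2 ratios of -0.76 (-1.49 to 0.04) and -0.74 (-1.27 to -0.20). Both are nearer to 0 than the ratios over all cells.

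By level, Dkk2 was an exception. In PDGFRA-high cells it was at 13.6, 21.8 and 1.36 CPM in A1, A2 and A3 and at 6.24, 7.79 and 0.688 CPM in B1, B2 and B3. The ratios were -3.68 (-4.92 to -2.54) and -3.36 (-5.11 to -1.95), from 10 UMIs against 22 and from 5 against 25. The 22 UMIs came from 4 cells of A1 and 6 of A2, a clustering in few cells that the interval leaves out. At matched depth, 1 of 74, 0 of 59 and 4 of 1023 cells of A1, A2 and A3 held Dkk2, with overlapping intervals. In B1, B2 and B3 the thinned shares were 1.36%, 1.87% and 0.249%. Including the genes under 20 CPM, 2 of 7 members with UMIs on both sides were 2-fold lower and 1 higher in ending A (Rspo1 and Dkk2, and Frzb), and 3 of 8 were lower in ending B (Rspo1, Rspo2 and Dkk2). Of all genes with UMIs on both sides, at any level, 7.76% were 2-fold lower and 8.41% higher in ending A, and 7.40% and 6.16% in ending B. All but Dkk2 rest on 1 to 12 UMIs a side. The makeup of the class differed between the sides: cluster A4 held 44.5% of the PDGFRA-high cells of A3 but 21.6% of those of A1 and A2, where A12 held 44.8%. In ending B, cluster B1 was the main one on both sides (40.3% and 34.8%).

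Within other mesenchyme, Rspo3 was lower in set 3 in both endings. It stood at 69.6, 75.2 and 21.6 CPM in ending A and at 69.5, 72.0 and 42.7 CPM in ending B, with log2 ratios of -1.75 (-2.23 to -1.30) and -0.73 (-1.28 to -0.22). Of the members with at least 20 CPM, 1 of 3 was 2-fold lower in ending A (Rspo3) and 1 of 5 in ending B (Dkk2), and none was higher. Of all genes, 1.55% were lower and 4.34% higher in ending A, and 2.60% and 8.73% in ending B. Dkk2 in ending B reached 20 CPM only in sets 1 and 2 (39.6 CPM against 14.7 in set 3), so the filter favoured its call. Counting the lower levels too, 3 of 8 were 2-fold lower in ending A (Rspo2, Rspo3 and Sfrp2) and 2 of 7 in ending B (Rspo2 and Dkk2), and Frzb was higher in both, from 5 and 4 UMIs. Of all genes with UMIs on both sides, 4.88% were lower and 17.2% higher in ending A, and 5.55% and 16.9% in ending B. Few cells carry these values, 149 in A3 and 124 in B3, and cycling clusters held most of them: A11, led by the mitotic genes Ube2c, Cenpf and Cdc20, held 64.4% of them in A3 and 3.89% in A1 and A2, and B5, led by histone genes and Ube2c, held 58.9% in B3 and 18.9% in B1 and B2. Without A11, the ratio of Rspo3 in ending A was -0.98 (-1.67 to -0.36), just under 2-fold, and that of Rspo2 went from -2.41 (-4.29 to -1.04) to -0.70 (-2.58 to 0.66), so both lost the 2-fold call. Rspo1 turned from -0.97 (-2.60 to 0.27) to 0.74 (-0.90 to 1.98), on 5 UMIs in A3, and Dkk2 turned from -0.93 (-1.69 to -0.26) to 0.17 (-0.78 to 0.98).

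**Figure D2:**
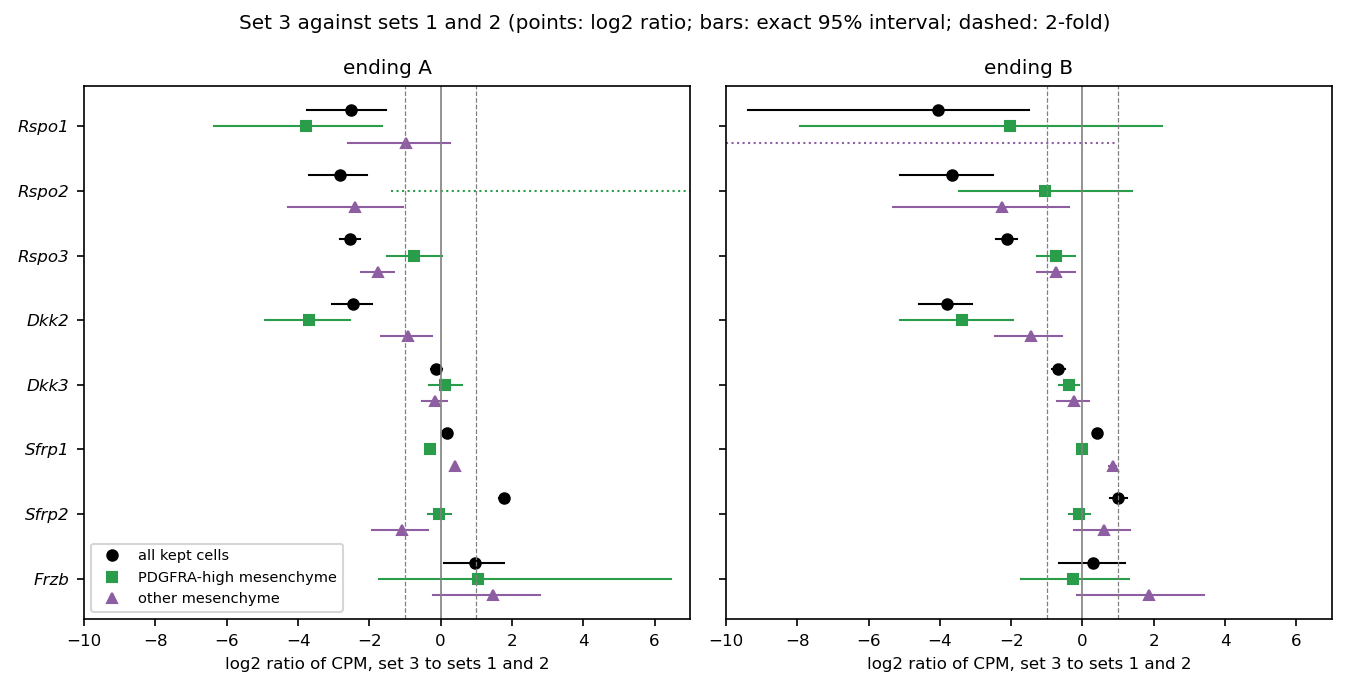
Log2 ratio of CPM in set 3 to sets 1 and 2 (horizontal axis) for each gene in all kept cells, in PDGFRA-high mesenchyme and in other mesenchyme, with exact 95% intervals as bars. A dotted bar is an interval for a gene with no UMI on 1 side, and bars end at the edge of the plot. The Sfrp2 point lies near 0 within PDGFRA-high cells in both endings (-0.05 and -0.09), while that of Dkk2 stays below -3.

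The classes were also compared inside sets 1 and 2, without set 3. Intervals excluded 0 for Rspo2, Rspo3, Sfrp1 and Sfrp2 in both endings, and for Rspo1, Dkk2 and Dkk3 in ending B. The share of all genes whose interval excluded 0 was not computed, so this list says nothing about the members as a set. In PDGFRA-high cells of A1 and A2, Rspo3 was at 15.9 CPM against 72.3 in other mesenchyme (log2 ratio -2.19, -2.90 to -1.56), and in B1 and B2 at 15.6 against 70.8 (-2.18, -2.60 to -1.79). The 2 endings gave nearly the same ratio. Rspo2 had no UMI in the PDGFRA-high cells of A1 and A2, which allows at most 2.38 CPM against 11.2 in other mesenchyme, and so was at least 4.69-fold lower by that limit of 3 UMIs; the exact interval of its log2 ratio ends at -1.93. In B1 and B2 it was at 1.13 against 12.8 CPM (-3.50, -5.39 to -2.12). Sfrp2 was higher in PDGFRA-high cells, at 77.0 against 16.8 CPM (2.20, 1.88 to 2.50) and at 38.3 against 14.0 CPM (1.45, 1.13 to 1.77). Dkk2 was at 17.5 against 18.0 CPM in ending A, with no difference beyond counting (-0.04, -0.72 to 0.56), and at 7.08 against 39.6 CPM in ending B (-2.48, -3.12 to -1.91). Rspo1 did not differ beyond counting in ending A (0.11, -1.22 to 1.17) and was lower in PDGFRA-high cells of ending B (-2.24, -5.33 to -0.28), from 2 UMIs against 38. Dkk3 had -0.25 (-0.70 to 0.17) and -0.50 (-0.74 to -0.26). Sfrp1 was 1.34-fold and 1.63-fold higher in PDGFRA-high cells of these sets, and in set 3 it was 1.22-fold and 1.12-fold lower there. The class of a cell was read from other genes, but all genes of 1 cell share its library, so these ratios describe the cells and test nothing.

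Cells were also taken by their own Pdgfra UMIs among 2000, with no clustering. The share of cells with a Rspo3 UMI was 11% (10.0 to 12.1) at 0 Pdgfra UMIs, 10.6% at 1, 6.52% at 2 or 3 and 2.36% (0.872 to 5.07) at 4 or more in ending A. In ending B it was 8.13% (7.38 to 8.94), 3.44%, 2.58% and 3.17% (0.387 to 11), where the last class has 63 cells. Dkk2 went from 3.59% at 0 to 1.20% at 2 or 3 and 0.394% at 4 or more Pdgfra UMIs in ending A. In ending B it went from 4.39% to 0.516% and was at 1.59% (0.040 to 8.53, 1 of 63 cells) at 4 or more. Rspo2 went from 2.51% at 0 to 1.20% at 2 or 3 in ending A and from 1.42% to 0.516% in ending B. No cell with 4 or more held Rspo2 in either ending. Sfrp2 went from 3.48% at 0 to 6.52% at 2 or 3 and 7.09% at 4 or more in ending A, and was at 3.38%, 4.03%, 3.79% and 0% (0 of 63 cells, which allows up to 5.69%) in ending B. Sfrp1 stayed between 79.4% and 80.7% in ending A and went from 72.1% to 87.3% in ending B. Rspo1 and Frzb were in under 1% of cells in every class, and Dkk3 went from 9.22% to 7.09% and from 10.8% to 3.17% (0.387 to 11, 2 cells). Each class pools the 3 sets of an ending, and Pdgfra was at 940 and 407 CPM in A3 and B3 against 105 to 173 CPM in the other sets.

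**Figure D3:**
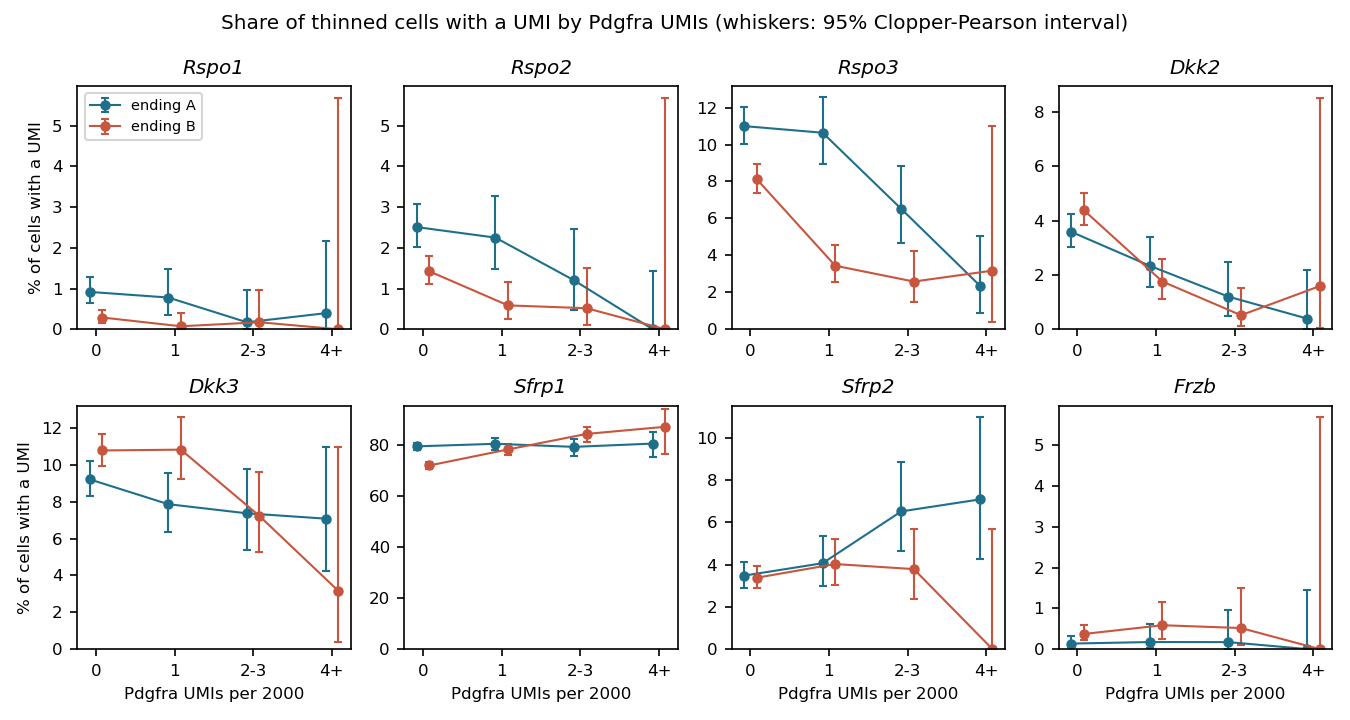
Share of thinned cells with a UMI of each gene (vertical axes, from 0) by the number of Pdgfra UMIs among 2000 (horizontal axis), for both endings, with 95% Clopper-Pearson intervals. Rspo3 and Dkk2 have their highest share at 0 Pdgfra UMIs in both endings, and Sfrp2 its highest at 4 or more in ending A (7.09%) and none of 63 cells there in ending B.

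Over the 25 clusters of at least 50 cells, the R-spondins and Dkk2 had their highest levels in clusters of other mesenchyme. Rspo3 was highest in A0 (109 CPM, 102 to 118), a cluster led by Sptssb, the matrix proteoglycan gene Ogn and the transcription factor gene Maf, and in B0 (106 CPM, 97.9 to 115), led by Ogn, the chemokine gene Cxcl13 and Lrat, an enzyme gene of retinoid storage. The next cluster in ending B, B8 at 95.1 CPM (84.1 to 107), did not differ from B0 beyond its interval. It was lowest in A6 and B2, at 7.17 and 6.47 CPM. Rspo2 was highest in the same clusters, at 28.7 CPM in A0 (24.9 to 33.0) and 21.9 in B0, and A9 at 24.4 CPM (18.8 to 31.3) did not differ from A0 beyond its interval. Dkk2 was highest in A9, a cluster led by the extracellular matrix genes Dpt, Aspn and Mgp, at 95.8 CPM (84.2 to 109) against 26.8 in the next cluster, A13, and in B0 at 67.5 CPM (60.8 to 74.8) followed by B8 at 48.1. Rspo1 was highest in A9 too (11.2 CPM, 7.53 to 16.2), where the interval overlaps that of A2 (6.39 CPM, 4.68 to 8.52), and its highest clusters in ending B, B8 and B0 at 3.51 and 3.13 CPM, did not differ beyond their intervals. A0 therefore combined high Rspo2 and Rspo3 with an average Dkk2 level (14.7 CPM against 15.4 over the ending), while A9 combined high Dkk2 with the second highest levels of Rspo2 and Rspo3 (24.4 and 85.3 CPM). Dkk3 varied less, from 25.5 CPM in A3 (a cluster of dividing cells, unlike the barcode set of that name) to 77.2 in A13 and from 37.5 in B3 to 88.0 in B0.

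Sfrp2 and Sfrp1 had their highest levels in different PDGFRA-high clusters. Sfrp2 was highest in cluster 6 of ending A, led by Opcml, Elovl7 and Cd38, at 202 CPM (186 to 218), which is far above the next cluster, A14 (55.1 CPM). In ending B it was highest in cluster 2, led by Gadd45a, Ajap1 and Cpne8, at 68.7 CPM (59.3 to 79.1), followed by cluster 1 at 36.1. Sfrp1 was highest in cluster 12 of ending A, led by Bmp3, Aplnr and Plk2 (1615 CPM), and in cluster 3 of ending B, led by Npnt, AW112010 and Col18a1 (1528 CPM). In those 2 clusters Sfrp2 was at 11.8 and 2.85 CPM, and in the Sfrp2-high clusters Sfrp1 was at 905 and 639 CPM, below the 1028 and 895 CPM of the whole endings. Clusters 4 and 6 of ending A, which hold most PDGFRA-high cells of the third set, also carried epithelial markers (291 and 268 CPM in all). In each, 6 of these markers were at least 4-fold over the rest of the ending. The part of such RNA in the values of these clusters was not tested. Frzb reached at most 2.40 CPM in ending A and 4.56 CPM in ending B, in clusters with 1 and 13 UMIs.

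**Figure D4:**
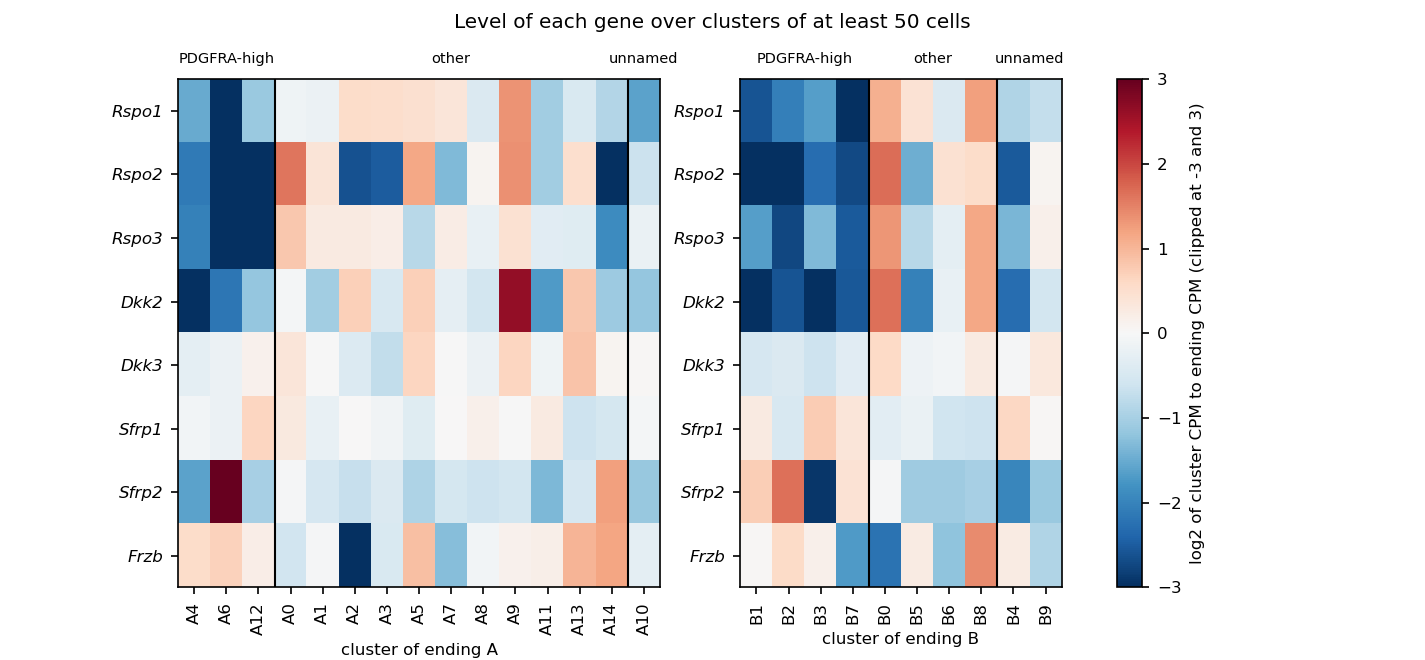
Log2 ratio of each gene's CPM in a cluster to its CPM in the whole ending (colour, clipped at -3 and 3, red higher), for clusters of at least 50 cells in 3 classes. The R-spondins and Dkk2 are blue in PDGFRA-high clusters, and Sfrp2 is red in A6 (202 CPM) and B2 (68.7 CPM) and blue in B3 (2.85 CPM).

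Which genes were found in the same cells was asked at matched depth, in cells thinned to 2000 UMIs. For each pair, the share of cells with the second gene was compared between cells with and without the first, as a ratio over the 3 sets of an ending. Of 15 pairs of an R-spondin with a Dkk or Sfrp gene, 7 in each ending had at least 5 cells expected to hold both. Single draws of UMIs proved unsteady, so the average over all possible draws is given first. By it, Rspo3 and Dkk2 were found together in ending B: 9.15% of cells with Rspo3 held Dkk2 against 2.89% of cells without, a ratio of 2.39. The ratio was 2.39 within B1 and 2.32 within B2, and 1.85 within other mesenchyme. Among 9629 genes set against Rspo3 in the same way, 2.50% had a ratio of at least 1.5 and 3.78% had 1 of at most 0.667. In ending A the same pair had a ratio of 1.37 (4.53% against 2.74%), 1.57 within A1 and 1.18 within A2. In ending A 0.0385% of 10400 genes reached 1.5 with Rspo3 and 0.856% were at 0.667 or below. The difference between the endings was not tested.

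No other pair of an R-spondin with a Dkk or Sfrp gene and at least 5 expected cells passed 1.5-fold by the average over draws. Below that minimum, Rspo2 with Dkk2 had ratios of 1.84 in ending A (4.05 cells expected, 7.30 found on average) and 1.93 in ending B (4.28 expected, 8.12 found), and Rspo1 with Dkk2 had 1.77 in ending A (1.61 expected) and 1.31 in ending B (0.883 expected). Within other mesenchyme, Rspo1 with Dkk2 had 1.58 in ending A and 1.07 in ending B, and Rspo2 with Dkk2 had 1.78 and 1.43. The ratios of Rspo1 and Rspo2 with Dkk2 rest on few cells. Rspo1 with Dkk2 in ending B had 0.221 within B1 and 3.40 within B2. No trait shared by the R-spondins is read from these pairs. In 1 random draw, Rspo3 with Dkk2 had 0.797 in ending A. Rspo2 and Dkk3 had ratios of 1.27 in ending A and 1.37 in ending B, and 1.35% and 2.16% of all genes reached 1.5 with Rspo2. Rspo3 and Dkk3 had 0.968 and 1.18. Rspo3 and Sfrp2 had 1.02 and 0.854. The 3 R-spondins with Sfrp1 had 0.979 to 0.991 in ending A and 0.930 to 1.00 in ending B, so cells with an R-spondin held Sfrp1 about as often as cells without. A ratio of 1.5 was out of reach for these pairs, because 74.7% to 80.2% of cells without the R-spondin held Sfrp1. In 1 random draw, the planned comparison, 1 pair passed in ending A, Rspo3 with Sfrp2 at 0.374 (8 cells with both), and 6.31% of genes were at 0.667 or below. In ending B 3 passed: Rspo3 with Dkk2 at 2.35 (44 cells with both, 20.9 expected), Rspo2 with Dkk3 at 1.52 (14 cells) and Rspo3 with Sfrp2 at 0.572 (8 cells). There 6.16% of genes reached 1.5 with Rspo3, 6.99% did so with Rspo2, and 9.42% were at 0.667 or below with Rspo3. Another draw gave 1.25 for Rspo3 with Sfrp2 in ending A and left no pair of that ending past 1.5-fold. Shares of both genes are low, and cells with no UMI can still express a gene.

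**Figure D5:**
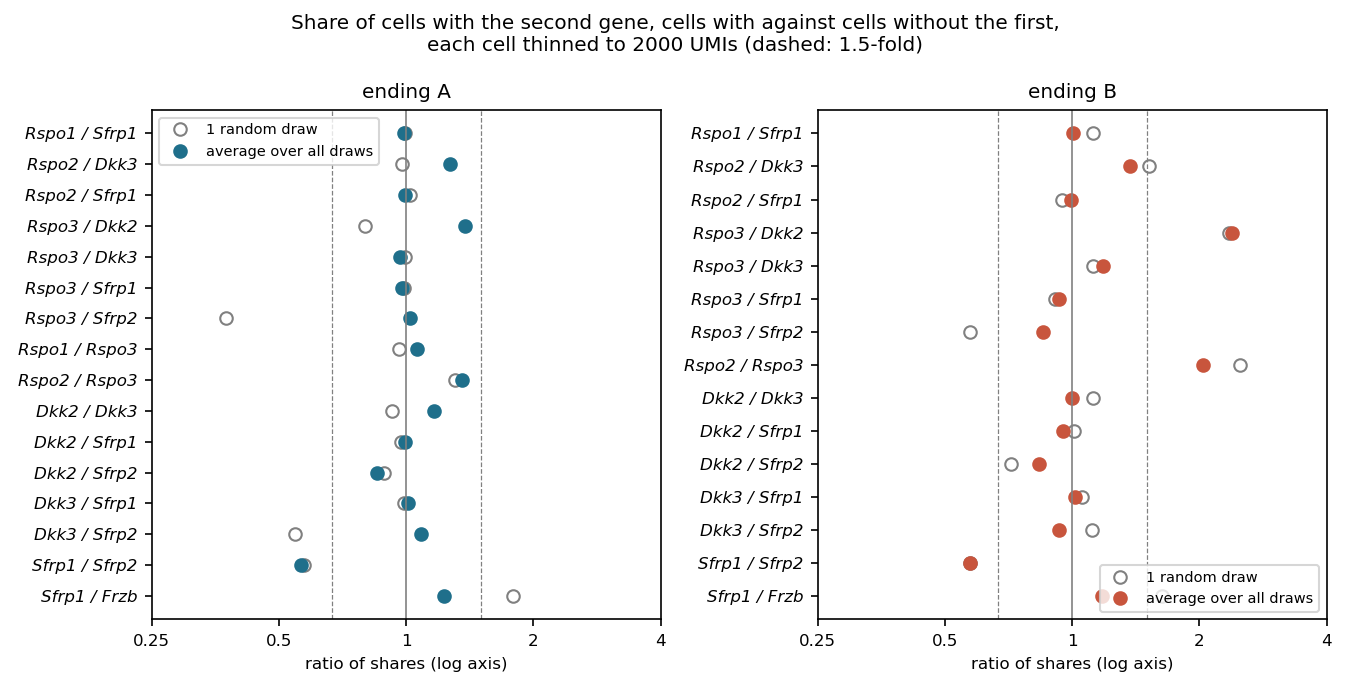
Ratio of the share of cells with the second gene between cells with and without the first (horizontal axis, log scale), for pairs with at least 5 expected cells, in the average over all draws (filled) and in 1 random draw (open). Rspo3 with Dkk2 lies past 1.5-fold in ending B (2.39) but not in ending A (1.37), and Sfrp1 with Sfrp2 lies below 0.667 in both (0.564 and 0.574).

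Among the R-spondins, Rspo2 and Rspo3 shared cells in ending B (18.9% against 7.13%, ratio 2.04) and had a ratio of 1.36 in ending A (16.3% against 10.1%). Within other mesenchyme the ratios were 1.60 and 1.28. Sfrp2 was in a smaller share of the cells with Sfrp1 than of those without. Of the cells with Sfrp1, 3.59% held Sfrp2 in ending A against 6.49% of those without (ratio 0.564), and 3.10% against 5.25% in ending B (0.574). Within PDGFRA-high mesenchyme the ratios were 0.334 and 0.462, and within other mesenchyme 0.904 and 0.786. The share of all genes with so low a ratio to Sfrp1 was not computed, so these values cannot be called unusual. Dkk2 had ratios of 0.995 and 0.949 with Sfrp1 and of 1.16 and 1.00 with Dkk3. Called doublets were left out, and the part of any remaining ones in these ratios was not tested.

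The levels over clusters, centred within each ending on the scale log2(CPM + 10), gave the genes most like each member. These correlations describe 25 clusters that share libraries and were formed from the same cells. Rspo3 was most like Cavin2, a gene of caveolae (Pearson r = 0.96), Samd4 (0.94) and the matrix glycoprotein gene Thbs4 (0.94), and Rspo2 was most like Tnik (0.94), Ogn (0.92) and Dab2 (0.91). Among the genes most like Dkk2 were Ccdc80 (0.91) and the matrix gene Aspn (0.90), and Dkk3 was most like the proteoglycan gene Dcn (0.92), the endocytic receptor gene Lrp1 (0.90) and S100a11 (0.90). Sfrp2 was most like the adhesion gene Negr1 (0.86), the calcium-binding protein gene Calb1 (0.79) and Cplx2 (0.78), and Sfrp1 like Rbpms (0.76), Mark3 (0.75) and Dmac2 (0.74). Rspo1 and Frzb did not reach 20 CPM in any cluster, and the genes most like them are left out. Among the members, Rspo2 had r = 0.76 with Dkk3, 0.74 with Dkk2 and 0.71 with Rspo3. Dkk2 had 0.71 with Rspo3 and 0.70 with Dkk3, while Dkk3 had 0.41 with Rspo3, and Sfrp2 had -0.40 with Rspo3 and -0.30 with Sfrp1. The value of 0.80 for Dkk2 with Rspo1 rests on low counts. The highest cluster level of Rspo1 was 11.2 CPM in ending A and 3.51 CPM in ending B.

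Of 52 other genes of the pathway, 21 had at least 20 CPM in 1 set. In set 3 of ending A, 4 of the 21 were at least 2-fold higher and 1 was lower, beside 9.68% and 5.61% of all genes, and the same 5 genes passed in ending B, where 6 were higher and 1 was lower, beside 8.56% and 5.40%. All 6 higher genes reached 20 CPM only in A3 or B3, so the filter itself favoured them and the count supports nothing about the pathway. Wnt4, a WNT ligand, was at 8.58, 9.07 and 75.7 CPM in A1, A2 and A3 and at 7.57, 10.8 and 24.1 CPM in B1, B2 and B3, so that A3 stood far above the other sets. Kremen1, a Dickkopf receptor, was at 22.0 against 5.00 CPM and at 13.1 against 3.07 CPM. The WNT feedback inhibitor Nkd2 had a log2 ratio of 1.82 in both endings, and the transcription factor Tcf7 had 1.44 and 1.19. The receptor Fzd1 was lower, at -1.23 (-1.43 to -1.04) and -1.43 (-1.79 to -1.09). Wnt5b and the co-receptor Lrp5 passed 2-fold in ending B (1.30 and 1.09) and stood at 0.84 and 0.94 in ending A. The remaining 14 stayed within 2-fold in both endings, with Wnt5a, a ligand, at 0.65 and 0.64 and Lrp6 at 0.40 and 0.42. None of the 5 receptors and ligases of R-spondins reached 20 CPM. They are named here after their values were seen: Lgr4 was at 13.2 to 16.7 CPM over the 6 sets and Znrf3 at 5.56 to 8.72, while Lgr5, Lgr6 and Rnf43 were at 0.179 to 2.15, 0 to 0.978 and 0.196 to 2.58 CPM.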

How the data were processed

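The authors deposited 1 matrix of raw UMI counts per gene and cell, made with 10x Chromium 3' v3 chemistry and MULTI-seq, a pooling method with lipid-bound barcodes, per the labels' protocols. Cell Ranger 2.1.1, Seurat and the build mm10 are named in the submitters' processing notes. The endings rest on different gene lists (21351 genes counted in ending A, 18222 in B, 17403 in both), and all 8 members are in both. No column of per-sample values was left unused (0). The 8 members and all gene lists were chosen with earlier results of these data known.

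Cells with under 1000 genes or over 5% mitochondrial UMIs were left out (108 and 367 cells, 439 in all). Scrublet in scanpy 1.11.5, run per set at an expected 5%, called 79 doublets (0.623%; 0.592% and 0.648% in endings A and B), which were left out. The number of doublets left among the kept cells was not measured. Across sets, 22 barcodes of 16 bases recur (6 to 8 cells per set). The kept cells hold 8165513 to 30669191 UMIs per set.

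Each ending was clustered apart (2000 variable genes without the members and the pathway list, 30 principal components, 15 neighbours, leidenalg 0.10.2 at resolution 1), which gave 16 and 10 clusters. PDGFRA-high clusters had at least 3 of 10 markers (Pdgfra, Foxl1, Bmp7 and others) 2-fold over the rest, and other mesenchyme had at least 3 mesenchyme markers at 100 CPM. Only clusters that met neither rule were tried for another lineage (3 of its markers at 4-fold), and no cluster was left for that step. Clusters A4 and A6 each had 10 PDGFRA-high markers at 2-fold and 6 epithelial markers at 4-fold. They took the PDGFRA-high name because that rule came first. Another lineage had more markers among the top 10 genes of 3 clusters, which stayed unnamed. CPM is summed UMIs over the total of the cells. Intervals are exact (Poisson, Clopper-Pearson or conditional binomial), from scipy 1.17.1. A count of 0 was read as at most 3 UMIs. Thinning drew 2000 UMIs per kept cell without replacement and left out 41 shallower cells (2, 1, 3, 13, 10 and 12 in A1, A2, A3, B1, B2 and B3). The ratio of shares is a Mantel-Haenszel ratio over sets. A difference was called at 2-fold for levels and 1.5-fold for shares. Named are the members, pathway genes with at least 20 CPM in 1 set, the 3 genes most like each member (1 of them is not reported here), and the 3 leading genes of a cluster at 50 CPM or more. The ratio steps were tested on simulated data. No count model was fitted, because the matrix has no replicates that can be told apart.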

Additional observations from a re-analysis of the deposited data

How the results depend on the processing

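No paired analysis was possible because no cell can be assigned to a labelled sample, so lane numbers could not serve as a block. The 7 alternatives for the levels (no cell filter, doublets kept, mean of per-cell CPM, equal weights, without set 1, without set 2, without the 50 genes with the most UMIs) changed no direction of a member whose interval excluded 0. The number of members past 2-fold was 5 to 6 in ending A (main value 5) and 4 to 5 in ending B (5), and leaving out set 1 or set 2 gave 6 and 5 in ending A and 4 and 5 in ending B. Rspo1, Rspo2, Rspo3 and Dkk2 stayed past 2-fold in all 7 in both endings.

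Shared detection depended on the draw. The number of pairs past 1.5-fold in ending A was 1, and became 3 at 3000 UMIs, 0 with another seed and 0 in the average over all draws. In ending B it was 3, and 1 in that average. Within classes it was 5, and became 3 at clustering resolution 0.5 and 1 in the average over all draws. Rspo3 with Sfrp2 reversed: from 0.374 in ending A to 1.12 at 3000 UMIs, 1.20 without thinning, 1.25 with another seed and 1.02 in the average, and from 0.572 in ending B to 1.19 at 3000 UMIs and 1.08 without thinning. Rspo3 with Dkk2 ranged from 2.30 to 2.91 in ending B and from 0.789 to 1.80 in ending A. Of 112 ratios of shares under alternatives, 90 stayed within the counting interval, 16 moved beyond it and 6 reversed; of 112 log2 ratios, 105 stayed within it and 7 moved. The counts of members past 2-fold over all cells stayed within 1.5 times the main value, and the counts of pairs past 1.5-fold did not. Within classes there were 13 calls past 2-fold, summed over both classes and both endings, so that a gene can count more than once. Over clusters, 4 highest levels lay in PDGFRA-high clusters, those of Sfrp1 and Sfrp2 in each ending. By Pdgfra UMIs, 13 of 16 shares were lower at 4 or more than at 0. That count has no share over all genes beside it, and rare genes can be absent from a class of few cells, so it shows no trend. The averages over draws, the mean thinned UMIs and the removal of cluster A11 were added after the data were seen. Depth limits Rspo1 and Frzb, which have 1 to 149 and 13 to 33 UMIs per set.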
